A study of Mus musculus with 12 samples.

Results

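Collagen chains are the gene products that wind in threes into the collagens of the extracellular matrix, and their transcripts were followed here in mouse back skin. Members were the protein-coding genes whose symbol is Col, a number, a and a number, as in Col1a1, with at least 10 counts in at least 3 of the 12 libraries. Of 44 such genes in a table of 56923 genes, 40 qualified, and they were read as 10 fibrillar chains, 10 chains of basement membranes and 20 other chains. Col2a1, Col9a1, Col10a1 and Col19a1 stayed below the minimum. Just outside it, Col2a1 reached 10 counts in 2 libraries with 58 counts in all, and just inside it Col9a2 reached 10 counts in 3 libraries with 84 in all. Col9a2 had too few counts for the test across genes, so 39 members were tested.

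The skin came from female mice aged 8 to 10 weeks on a C57BL/6 background, in 4 groups of 3 mice. A WT and an Lcn2-/- group, as labelled, received IMQ, and a control group of each label did not. Imiquimod (IMQ), a Toll-like receptor agonist that raises psoriasis-like lesions, was spread as a 5% cream on the shaved back every day for 6 days, and by the study's methods the controls received Vaseline, although the labels give their treatment as none. The Lcn2-/- line was bought from a repository and compared with WT littermates, while the labels call the genotype a knockdown. Lcn2, which encodes the iron-carrier protein lipocalin-2, was counted in every library, at 173 to 357 counts in the controls and 511 to 830 counts in the IMQ mice labelled Lcn2-/-, against 86 to 201 and 1010 to 2723 counts in the WT groups, so the genotype is given below as a label. The series asked what loss of LCN2 does in this psoriasis model, and the comparisons here ask what IMQ and the genotype label go with in the collagen transcripts.

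Fibrillar collagens such as types I, III and V form the cables that give the dermis its tensile strength, and they are made mainly by fibroblasts. Type IV collagen forms the sheet-like network of basement membranes, to which type XVII collagen in the hemidesmosomes and type VII collagen in the anchoring fibrils fasten the epidermis. The other chains build beaded microfibrils (type VI), short-chain networks (type VIII), transmembrane collagens (type XIII) and the fibril-associated collagens that decorate fibril surfaces (types XII, XIV and XVI).

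Sequence before the annotated starts is shown for chains that stand for the patterns described below. These are Col3a1 and Col5a1, higher under IMQ in mice labelled Lcn2-/-, Col7a1, higher under IMQ with either label, and Col11a1, lower under IMQ with either label. Each line holds the 150 bases before the start, 5′ to 3′, from RefSeq on GRCm38.p6, and no annotated exon lies in them. Capitals mark motifs searched on both strands, which do not overlap each other here. They are the letters CCAAT, the TATA box letters TATAAA and the GC box letters GGGCGG.
Col3a1, chr1:45311388-45311537, plus strand: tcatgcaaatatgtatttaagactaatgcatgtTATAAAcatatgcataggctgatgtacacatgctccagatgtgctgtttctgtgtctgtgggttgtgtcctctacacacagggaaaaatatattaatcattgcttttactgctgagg
Col5a1, chr2:27886275-27886424, plus strand: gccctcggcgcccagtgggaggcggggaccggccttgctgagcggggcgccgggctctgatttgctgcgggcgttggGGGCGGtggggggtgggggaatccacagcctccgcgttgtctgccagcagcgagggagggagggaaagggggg
Col7a1, chr9:108953436-108953585, plus strand: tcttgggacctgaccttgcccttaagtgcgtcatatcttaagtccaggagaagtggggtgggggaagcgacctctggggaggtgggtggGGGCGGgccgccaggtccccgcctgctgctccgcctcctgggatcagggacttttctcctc
Col11a1, chr3:114030390-114030539, plus strand: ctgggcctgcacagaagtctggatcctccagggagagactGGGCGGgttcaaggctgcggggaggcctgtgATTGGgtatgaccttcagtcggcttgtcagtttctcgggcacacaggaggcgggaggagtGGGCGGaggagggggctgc
The windows differ in these motifs. Col3a1 holds TATAAA beginning 117 bases before the start, and Col5a1 and Col7a1 hold GGGCGG at 73 and 61 bases. Col11a1 holds CCAAT on the minus strand at 79 bases and GGGCGG on the plus strand, with its nearest copy at 19 bases. Windows were on hand for 32 of the 40 members (34 windows), with none for Col1a1, Col5a2 and Col14a1. The motif GGGCGG stood in 19 of the 34 collagen windows (55.9%) and in 28.6% of all 32851 windows of that length. CCAAT stood in 20.6% of the collagen windows and 24.5% of all, and TATAAA in 8.82% and 7.57%. A match is a description of letters and not a binding site.

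Col4a1 and Col4a2, whose chains form the common type IV collagen, are transcribed in opposite directions from starts that overlap. The 22 bases shared by their first exons are shown because the table does not state whether reads were counted by strand, with the motif GGGCGG in capitals.
Col4a1 and Col4a2, chr8:11312805-11312826, plus strand: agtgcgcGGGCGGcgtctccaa
Overlaps with other genes cover 0.295% of the merged exons of Col4a1 and 0.982% of those of Col4a2, where an antisense gene adds to this stretch. The largest share of exon sequence that any tested member shares with another gene was 6.07% in Col9a3, so reads near those overlaps cannot be told apart for the members concerned.

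Libraries held 16448226 to 28592110 counts, and 3 counts corresponded to 0.105 to 0.182 CPM (counts scaled to a common library size), a floor for counting error only. Retinal markers, checked because the extraction text of the labels names retinas, summed to 0.0672 to 2.0 CPM with Rpe65, Crx and Nrl at 0 in all 12 libraries, while 9 keratinocyte genes summed to 4810 CPM or more in each. The control libraries stood apart from each other in 7 hair follicle genes, which summed to 3080, 12.6 and 1690 CPM in the WT controls and to 176, 10100 and 4100 CPM in the controls labelled Lcn2-/-. In whole skin, fewer cells of a type and less RNA per cell cannot be told apart.

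Collagen transcripts made up 1.24% to 1.75% of all counts in the WT controls and 1.14% to 1.24% in the WT IMQ mice. They made up 1.37% to 1.5% in the controls labelled Lcn2-/- and 2.22% to 2.33% in the IMQ mice with that label. The last range lies above all others. Summed over the 10 fibrillar chains, the WT controls had 10700, 13100 and 8120 CPM and the WT IMQ mice 8590, 8550 and 8940 CPM, groups that overlap (log2 difference -0.27, SE 0.20, exact permutation p = 0.4, two-sided). That difference was -0.10 without WT control 2 and -0.45 without WT control 3. The controls labelled Lcn2-/- had 9100, 9340 and 8730 CPM and the IMQ mice so labelled 18100, 18200 and 18500 CPM, a 2.02-fold difference (log2 1.01, SE 0.03, exact permutation p = 0.1, the smallest that 3 mice against 3 allow). The 3 IMQ mice labelled Lcn2-/- lay close together and above every other mouse.

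The sums of the other classes had a different order. The basement membrane chains summed to 1840, 1540 and 1490 CPM in the WT controls and to 1910, 2350 and 2040 CPM in the WT IMQ mice, higher without overlap (1.3-fold, exact permutation p = 0.1). They summed to 1630, 1970 and 1670 CPM in the controls labelled Lcn2-/- and to 2650, 2680 and 2870 CPM in the IMQ mice (1.56-fold, exact permutation p = 0.1). The sum was therefore higher under IMQ with either label, although in WT mice more chains of this class fell than rose, as given below, and the sum follows its abundant chains. The other chains fell to 0.77-fold in WT mice, from 2750, 2400 and 2120 to 1790, 1910 and 1870 CPM. With the Lcn2-/- label they went from 2340, 2600 and 2030 to 2980, 3480 and 3280 CPM, 1.4-fold (exact permutation p = 0.1 for both). The log2 ratio of fibrillar to basement membrane CPM was 2.54, 3.09 and 2.45 in the WT controls and 2.17, 1.87 and 2.13 in the WT IMQ mice. With the Lcn2-/- label it was 2.48, 2.25 and 2.38 in the controls and 2.77, 2.76 and 2.69 under IMQ, so it moved in opposite directions with the label. Without the most abundant chain of each class, the difference under the Lcn2-/- label was 0.07 in place of 0.37, whereas that in WT mice was larger, -1.08 in place of -0.64.

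**Figure D1:**
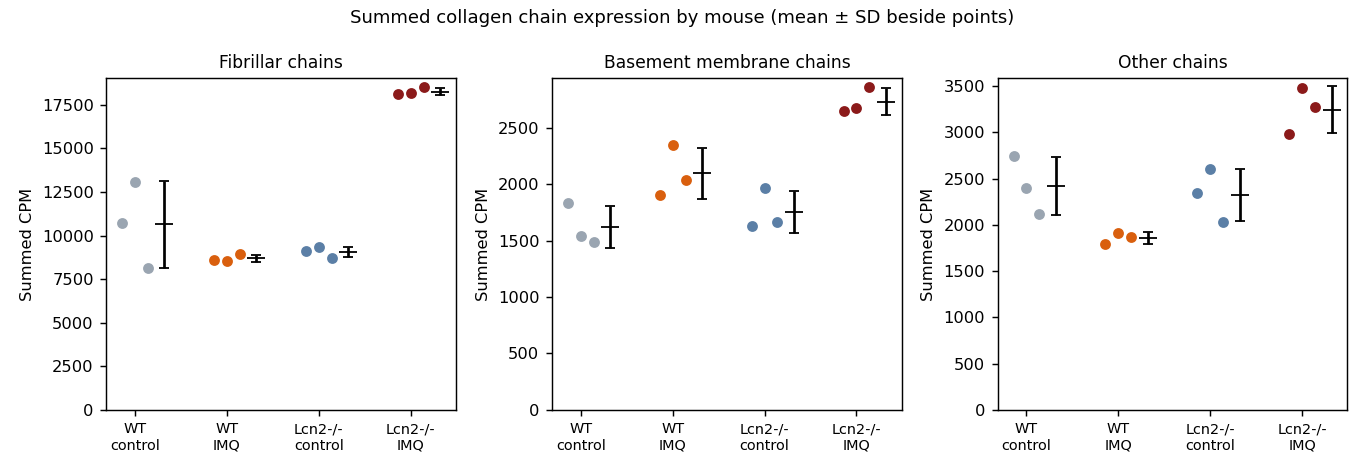
Summed CPM of the 10 fibrillar, 10 basement membrane and 20 other collagen chains (y axes, from 0) in each mouse of the 4 groups (x axes, genotype as labelled), with the mean ± SD beside the 3 points. The fibrillar sums of the IMQ mice labelled Lcn2-/- sit between 18100 and 18500 CPM, above the highest value of any other mouse, 13100 CPM.

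In WT mice, IMQ went with a fall of many collagen chains and a rise of 4. Of 39 tested members, 18 were lower and 4 higher at an adjusted p under 0.05, where 14.3% and 14.2% of all 18529 genes tested were lower and higher. The 4 that rose were Col7a1, Col13a1, Col17a1 and Col18a1. The median log2 fold change of the members was -0.42 and that of all genes -0.02. By class, 5 of 10 fibrillar chains fell and none rose by edgeR (1 at an unadjusted p under 0.05), 5 of 10 basement membrane chains fell and 3 rose, and 8 of 19 other chains fell and 1 rose. Beside this, 5 of 12 fibroblast markers fell, with a summed level of 3650 to 6640 CPM in the controls and 3050 to 3850 CPM under IMQ, groups that overlap. Of 10 endothelial markers 4 rose, with sums of 403 to 523 CPM in the controls and 519 to 861 CPM under IMQ. The part of these cells in the result was not tested.

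Among fibrillar chains, Col1a1 and Col1a2, the chains of type I collagen, both fell. Col1a1 stood at 2810, 2980 and 2290 CPM in the WT controls and at 1890, 1850 and 2080 CPM under IMQ (log2 fold change -0.47, SE 0.15, adjusted p = 0.0333). Col1a2 stood at 3350, 4330 and 2740 CPM and then at 1920, 1980 and 2050 CPM (log2 fold change -0.81, SE 0.17, adjusted p = 0.00404). Neither pair of groups overlaps, but the call of Col1a1 was lost without any 1 of 5 of the 6 WT mice (adjusted p up to 0.107). Col3a1, the single chain of type III collagen, did not pass the test in the same mice, with 3580, 4880 and 2450 CPM in the controls and 4080, 3990 and 4070 CPM under IMQ (log2 fold change 0.15, SE 0.22). Col5a1 and Col5a2, chains of the type V collagen that starts fibrils and limits their width, had log2 fold changes of -0.36 (SE 0.20) and 0.21 (SE 0.15) and did not pass either. The scarcer fibrillar chains Col24a1 and Col27a1 fell, by 1.28 and 1.04 on the log2 scale, and Col11a1 fell by 3.88. The call of Col24a1 was lost in 3 of 6 cases with 1 mouse left out.

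Among basement membrane chains, the structural type IV chains and the chains of the epidermal attachment parted. Col7a1 encodes the anchoring fibril collagen and rose from 67.1, 36.1 and 55 CPM to 145, 95.1 and 233 CPM (2.99-fold, log2 1.58, SE 0.32, adjusted p = 0.00372). Col17a1, a hemidesmosome collagen of basal keratinocytes, rose from 289, 343 and 372 CPM to 585, 550 and 666 CPM (1.79-fold, log2 0.84, SE 0.19, adjusted p = 0.00588). Col18a1, a heparan sulphate proteoglycan of basement membranes and the source of endostatin, rose from 142, 106 and 143 CPM to 207, 262 and 226 CPM (1.78-fold, adjusted p = 0.00257). No IMQ mouse overlapped the controls in these 3 genes. Beside them, 7 of 9 keratinocyte markers rose and 1 fell, with a summed level of 4810 to 7600 CPM in the controls and 19400 to 28000 CPM under IMQ, and their part in the result was not tested. Col4a1 and Col4a2 did not pass the test (log2 fold changes 0.10 and 0.31). The scarce type IV chains fell, with log2 fold changes of -0.94 in Col4a3, -1.27 in Col4a4, -1.17 in Col4a5 and -1.64 in Col4a6. With 1 mouse left out, the call of Col4a3 was lost in 5 of 6 cases (adjusted p up to 0.141) and that of Col4a5 in 2. Col15a1, a relative of Col18a1 in vascular and muscle basement membranes, fell from 236, 168 and 170 CPM to 101, 139 and 92.9 CPM (log2 fold change -0.78, adjusted p = 0.00685). Beside it, 8 skeletal muscle genes went from 13000 to 13600 CPM in sum to 5460 to 6720 CPM, and 6 of the 8 fell. With the Lcn2-/- label 4 of the 8 fell, with sums of 6340 to 11900 CPM in the controls and 5460 to 8470 CPM under IMQ. Col15a1 did not pass there (log2 fold change 0.21, SE 0.18). The part of muscle in the result was not tested.

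Among the other chains, Col14a1, a fibril-associated collagen of the dermis, fell from 201, 222 and 130 CPM to 86.7, 91 and 84.3 CPM (log2 fold change -1.08, SE 0.18, adjusted p = 0.00105). Col6a1 and Col6a2, obligate partners in type VI collagen, fell by 0.42 and 0.50 on the log2 scale, while their partner Col6a3 did not pass (log2 fold change -0.27, adjusted p = 0.258). Leaving out single mice ended the calls of Col6a1 in 4 of 6 cases and of Col6a2 in 3 of 6. Col6a6, which can stand in for Col6a3, fell by 1.21, and Col16a1, another fibril-associated collagen, fell by 0.52. Col8a2 and Col9a3 fell by 2.10 and 2.09 at levels of no more than 6.28 and 2.02 CPM in any WT mouse. Col9a3 had 38, 22 and 38 counts in the WT controls and 10, 2 and 7 counts in the WT IMQ mice. It was testable mainly through the controls, where it is higher. Col26a1 had 31, 12 and 45 counts in the WT controls and 0, 3 and 1 counts in the WT IMQ mice, so it was testable through the groups where it is higher and its fitted change of -4.09 depends on the prior count. The single chain of this class that rose was Col13a1, a transmembrane collagen of cell adhesion sites, from 2.73, 5.42 and 6.11 CPM to 9.51, 15.3 and 10.8 CPM (2.5-fold, adjusted p = 0.00916). Col12a1 spread widely within each group (46.8 to 156 CPM in the WT controls) and did not pass in any comparison.

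In mice labelled Lcn2-/-, IMQ went with a rise of the major fibrillar chains. Of the 39 members, 15 were higher and 4 lower at an adjusted p under 0.05, where 14.1% and 11.2% of all genes tested were higher and lower. The median log2 fold change was 0.37 in the members and -0.05 in all genes. Fibrillar chains gave 5 rises and 2 falls, basement membrane chains 3 rises and 2 falls, and other chains 7 rises and no fall by edgeR (1 at an unadjusted p under 0.05). Of 12 fibroblast markers, 2 rose, and their sum lay at 3210 to 4870 CPM in the controls and 4480 to 5590 CPM under IMQ, while 8 of 10 endothelial markers rose and their sum went from 293 to 530 CPM to 1040 to 1090 CPM. Of 8 mural cell and smooth muscle markers 4 rose and 1 fell, against 2 and 1 in WT mice. Of 7 adipocyte markers 1 fell in each, and 3 of 6 Schwann cell markers fell in WT mice. The part of these cells in the result was not tested. On library size alone, without normalization factors, the median of all genes shifted by -0.17 in WT mice and -0.20 in mice labelled Lcn2-/-, and the members then split into 4 higher and 19 lower in the former and 12 higher and 6 lower in the latter.

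Type III collagen led the fibrillar rise. Col3a1 went from 3360, 2640 and 2560 CPM in the controls to 7650, 7930 and 8900 CPM under IMQ (2.86-fold, log2 1.52, SE 0.22, adjusted p = 0.000846). Col5a1 went from 278, 255 and 223 to 535, 571 and 579 CPM (log2 1.16, SE 0.21, adjusted p = 0.00253). Col5a2 went from 356, 322 and 284 to 655, 746 and 704 CPM (log2 1.13, SE 0.15, adjusted p = 0.000547). These groups are far from overlapping, and the calls of all 3 genes held with any single mouse left out. Col1a1 went from 2120, 2700 and 2520 to 4840, 4510 and 4280 CPM (log2 0.89, SE 0.15, adjusted p = 0.00181). Col1a2 went from 2750, 3090 and 2910 to 4290, 4280 and 3820 CPM, a smaller change (log2 0.50, SE 0.17, adjusted p = 0.0438) that lost its call with any 1 of the 6 mice left out (adjusted p 0.0737 to 0.116). The type I chains thus rose here and fell in WT mice.

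Outside the fibrils, the largest rise was in Col13a1, from 3.12, 2.18 and 3.53 CPM to 18.3, 12.2 and 12.8 CPM (4.87-fold, log2 2.28, SE 0.33, adjusted p = 0.000692). Col8a1, a short-chain collagen of vessel walls, rose from 4.83, 5.22 and 5.54 to 13.1, 18.3 and 10.7 CPM (2.7-fold, adjusted p = 0.0017). Col18a1 rose from 110, 154 and 121 to 296, 304 and 311 CPM (2.36-fold, adjusted p = 0.000361), and Col7a1 from 49.7, 62.5 and 65 to 166, 110 and 111 CPM (2.19-fold, adjusted p = 0.0226). In these genes every IMQ mouse lay above every control, and the call of Col7a1 was lost in 4 of 6 cases with 1 mouse left out. Col17a1 overlapped between the groups and did not pass (log2 fold change 0.31, adjusted p = 0.244). Col4a2 passed (log2 0.85, SE 0.20, adjusted p = 0.00965) and its partner Col4a1 just missed the threshold (log2 0.64, SE 0.22, adjusted p = 0.0523), although the groups overlap in neither. Smaller rises were those of Col28a1 (log2 1.01), Col6a5 (0.99), Col6a3 (0.66), Col14a1 (0.55) and Col16a1 (0.40). Leaving out single mice ended the call of Col14a1 in 6 of 6 cases, of Col16a1 in 5, of Col28a1 and Col6a5 in 3 each and of Col6a3 in 2. The falls were those of Col11a1 (log2 -3.99), Col4a6 (-2.35), Col4a5 (-1.16) and Col27a1 (-0.84). Of these, the call of Col27a1 was lost in 5 of 6 cases (adjusted p up to 0.115) and that of Col4a5 in 2.

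**Figure D2:**
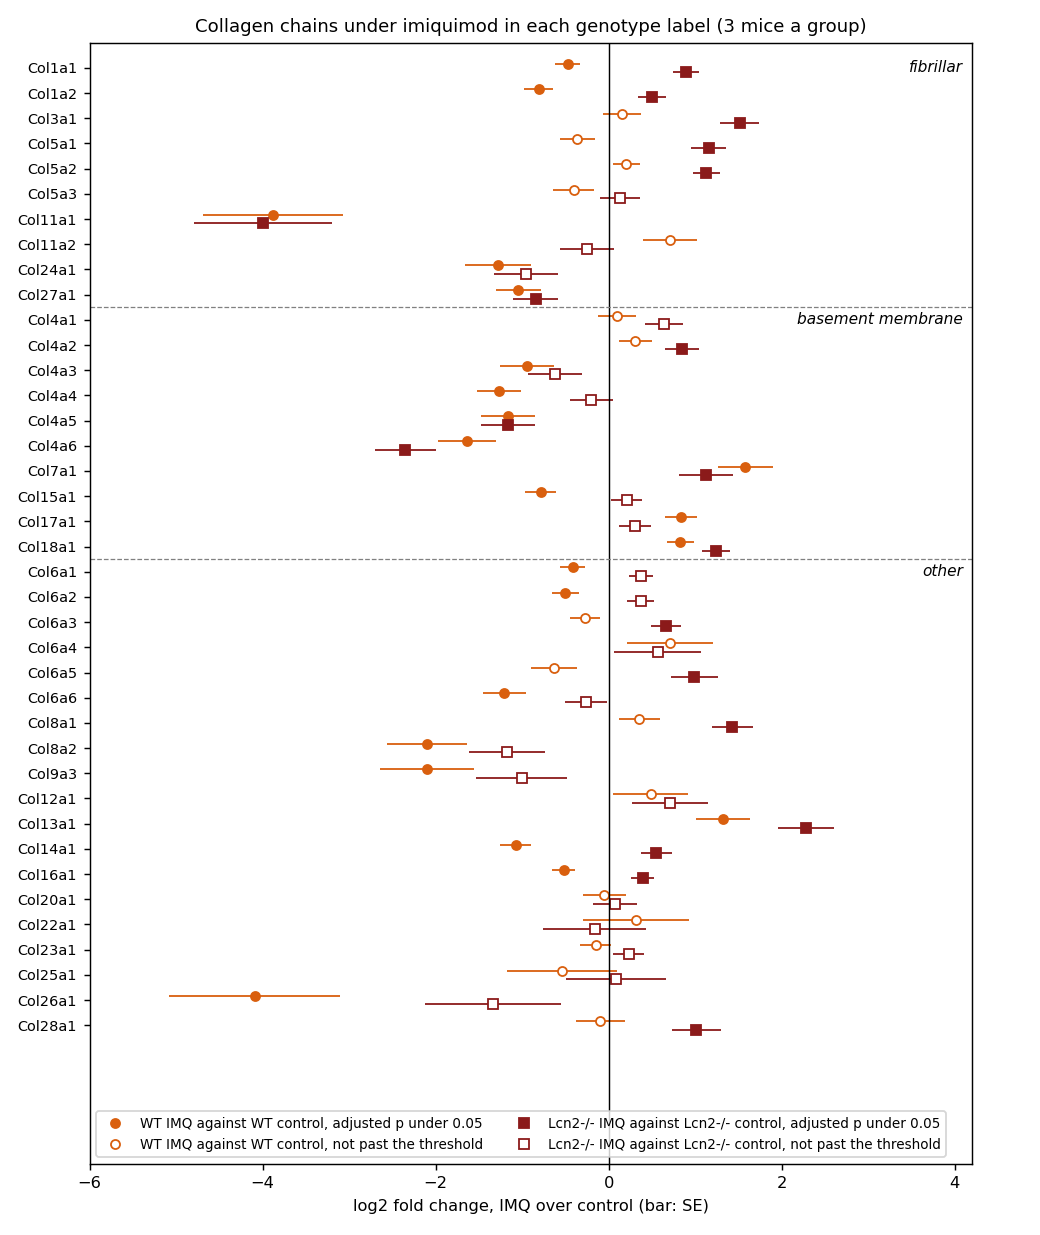
Log2 fold change of IMQ over control (x axis, bars are SE) for the 39 tested collagen chains (y axis, by class) in WT mice (orange circles) and in mice labelled Lcn2-/- (dark red squares), with filled symbols for an adjusted p under 0.05. Col1a1, Col1a2, Col14a1 and Col16a1 lie left of 0 in WT mice and right of 0 in mice labelled Lcn2-/-, while Col11a1 lies near -4 in both.

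The WT and the Lcn2-/- comparisons share no mouse, so their calls can be set side by side. Rises in both were those of Col7a1, Col13a1 and Col18a1, 3 of the 4 rises in WT mice and 3 of the 15 with the Lcn2-/- label. Falls in both were those of Col4a5, Col4a6, Col11a1 and Col27a1, 4 of the 18 falls in WT mice and all 4 with the Lcn2-/- label, with the limits just given for Col4a5 and Col27a1. Col1a1, Col1a2, Col14a1 and Col16a1 fell in WT mice and rose with the Lcn2-/- label. With 1 mouse left out, the fall of Col1a1 lost its call in 5 of 6 cases. The rises of Col1a2, Col14a1 and Col16a1 lost theirs in 6, 6 and 5 of 6 cases. A further 8 members passed only with the Lcn2-/- label (all rises), 11 only in WT mice (10 falls and the rise of Col17a1), and 9 in neither, Col4a1, Col5a3 and Col12a1 among them. Of the 39 members, 22 had fold changes of the same sign in both. None of these side-by-side counts was made over all genes, so they do not set the collagen chains apart from other genes.

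Whether the response to IMQ differed by label was tested as an interaction. It was higher with the Lcn2-/- label in 6 members and lower in none (1 at an unadjusted p under 0.05, none by DESeq2), where 1.37% and 0.783% of all genes were higher and lower. The 6 were Col14a1 (log2 difference of the responses 1.63, SE 0.25, adjusted p = 0.0194), Col5a1 (1.52, SE 0.29, adjusted p = 0.0312), Col1a1 (1.37, SE 0.21, adjusted p = 0.0195), Col3a1 (1.36, SE 0.31, adjusted p = 0.0484), Col1a2 (1.31, SE 0.23, adjusted p = 0.0262) and Col16a1 (0.92, SE 0.19, adjusted p = 0.0385). They are the chains of types I, III and V fibrils and of collagens that sit on fibrils. Col5a2 just missed (0.92, SE 0.22, adjusted p = 0.0506), as did Col6a5 (1.62, SE 0.38, adjusted p = 0.0506). No basement membrane chain passed, the nearest being Col15a1 (0.99, adjusted p = 0.0598). The count of 6 depended on single mice and on the tool. It was 0 without WT control 1, WT IMQ 1, WT IMQ 3, control 3 labelled Lcn2-/- or IMQ 2 labelled Lcn2-/-, 1 without control 2 or IMQ 1 of that label, 14 without WT control 3, 13 without WT IMQ 2, and 14 by DESeq2. Over the 12 mice left out, the fitted difference ran from 1.28 to 1.47 for Col1a1, from 1.12 to 1.46 for Col1a2, from 1.09 to 1.58 for Col3a1, from 1.23 to 1.74 for Col5a1, from 1.47 to 1.83 for Col14a1 and from 0.84 to 1.05 for Col16a1.

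Under IMQ, the mice labelled Lcn2-/- had more fibrillar and type VI collagen transcripts than the WT mice. Of 39 members, 13 were higher, where 2.19% of all genes tested were higher, and none was lower (1 at an unadjusted p under 0.05, 1 by DESeq2), where 2.6% of all genes were lower. The median log2 fold change was 0.70 in the members and -0.02 in all genes. The 13 were 5 fibrillar chains, namely Col5a1 (log2 fold change 1.28, SE 0.21), Col1a1 (1.23, SE 0.15), Col1a2 (1.06, SE 0.17), Col3a1 (1.01, SE 0.22) and Col5a2 (0.84, SE 0.15), 4 type VI chains, namely Col6a5 (1.20), Col6a2 (0.92), Col6a1 (0.83) and Col6a3 (0.72), the basement membrane chains Col15a1 (1.06) and Col4a2 (0.77), and the fibril-associated chains Col14a1 (1.27) and Col16a1 (0.64). Their adjusted p values lay between 0.0215 and 0.0492, and no IMQ mouse labelled Lcn2-/- lay at or below any WT IMQ mouse in these genes. The count fell to 0 without WT IMQ 1, WT IMQ 3 or any 1 of the 3 IMQ mice labelled Lcn2-/-, and was 15 without WT IMQ 2. In those fits the log2 fold change ran from 1.19 to 1.28 for Col1a1 (adjusted p up to 0.13), from 0.94 to 1.26 for Col15a1 (up to 0.13) and from 0.65 to 0.99 for Col4a2 (up to 0.207), the gene with the highest adjusted p of the 13. DESeq2 called 18 members, 17 of them higher.

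The chains of the epidermal attachment, Col17a1 and Col7a1, did not pass in this comparison and had fold changes below 0. Col17a1 lay at 585, 550 and 666 CPM in the WT IMQ mice and at 440, 338 and 397 CPM in the IMQ mice labelled Lcn2-/- (log2 fold change -0.62, SE 0.18, adjusted p = 0.0708), without overlap and short of the threshold. Col7a1 overlapped (log2 fold change -0.29, SE 0.31, adjusted p = 0.572). The other chains that rose under IMQ with either label had positive fold changes that did not pass, 0.28 (SE 0.31) in Col13a1, which overlapped, and 0.39 (SE 0.16, adjusted p = 0.142) in Col18a1, which did not. Keratinocyte markers summed to 19400 to 28000 CPM in the WT IMQ mice and 11400 to 16400 CPM in the IMQ mice labelled Lcn2-/-, with 3 of 9 lower. Fibroblast markers summed to 3050 to 3850 and 4480 to 5590 CPM, with 1 of 12 higher. Endothelial markers summed to 519 to 861 and 1040 to 1090 CPM, without overlap, and all 10 had positive log2 fold changes (median 0.66). The part of these cells in the 13 higher chains, Col15a1 and Col4a2 included, was not tested. The ratio of fibrillar collagen CPM to fibroblast marker CPM was 2.82, 2.22 and 2.83 in the WT IMQ mice. It was 4.04, 3.26 and 3.63 in the IMQ mice labelled Lcn2-/-, higher without overlap (1.39-fold, exact permutation p = 0.1, the smallest possible). Dcn dominates the marker sum, with 1530 of 3050 CPM in WT IMQ 1. Log2 fold changes of single markers ran from 0.33 (Dpp4) to 1.23 (Mfap4), against 1.07 for the fibrillar sum. The ratio thus depends on the markers summed, and collagen transcripts per fibroblast were not tested.

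**Figure D3:**
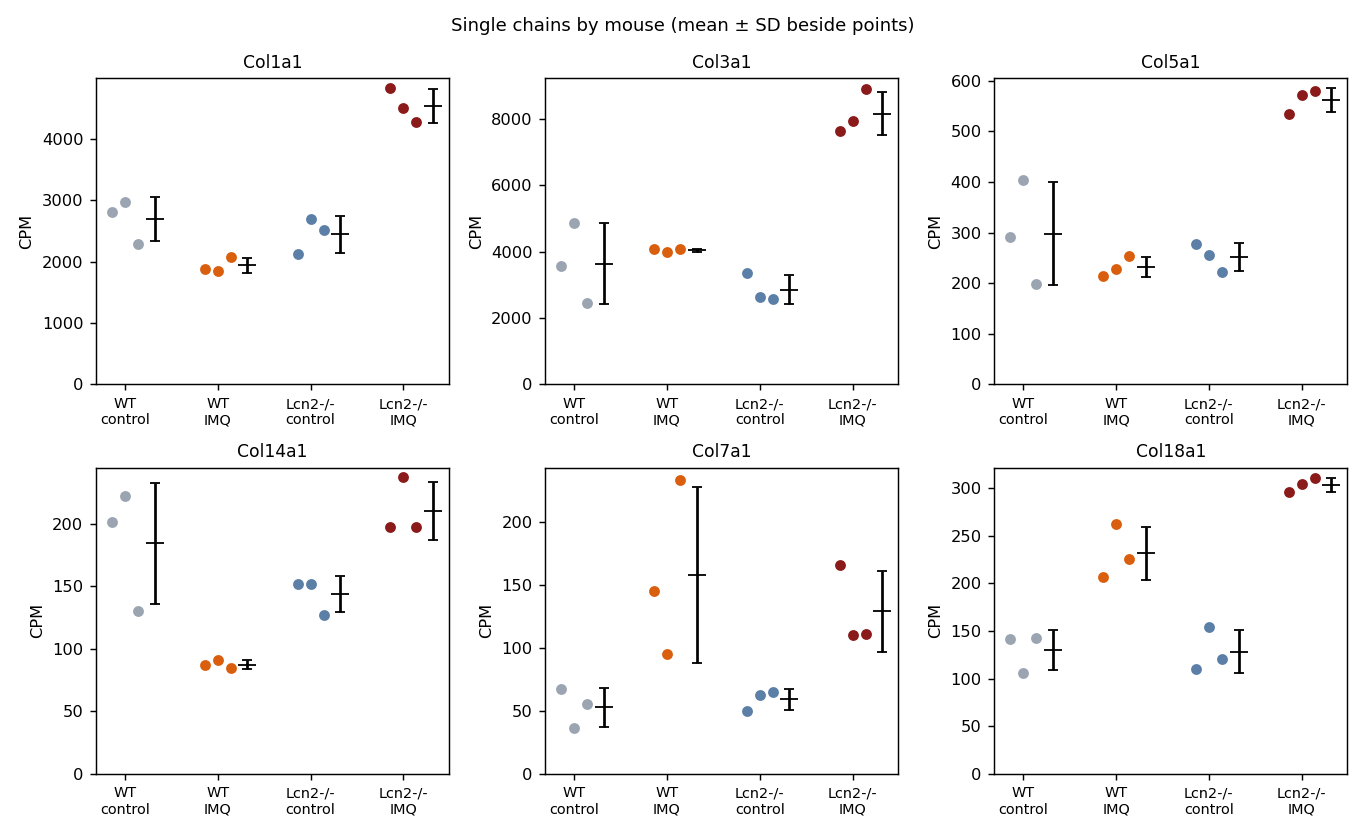
CPM of 6 collagen chains (y axes, from 0) in each mouse of the 4 groups (x axes, genotype as labelled), with the mean ± SD beside the 3 points. Col1a1, Col3a1 and Col5a1 are highest in the IMQ mice labelled Lcn2-/-, at 4280 CPM or more for Col1a1, whereas Col7a1 and Col18a1 are above their controls in both IMQ groups.

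Without IMQ, no member passed the test between the labels. None was higher and none lower at an adjusted p under 0.05 by edgeR or DESeq2 (0 higher and 2 lower at an unadjusted p under 0.05), where 0.0054% of all genes were higher and 0.0054% lower. The 2 were Col8a1, at 7.67, 9.37 and 6.91 CPM in the WT controls and 4.83, 5.22 and 5.54 CPM in the controls labelled Lcn2-/- (log2 fold change -0.62, SE 0.24), and Col28a1 (-0.67, SE 0.28), both named after their values were seen. A p that misses the threshold does not show that the controls are alike. Col1a1 had a log2 fold change of -0.14 (SE 0.15) and Col11a1 one of 0.70 (SE 0.69).

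Chains were compared per kilobase of merged exons (RPKM), a scale that depends on the lengths taken. Col1a1 stood at 410 ± 54.5 RPKM (SD, n = 3) in the WT controls, Col3a1 at 371 ± 124 RPKM and Col1a2 at 280 ± 64.4 RPKM. On this scale Col3a1 did not differ from Col1a1 beyond its spread there, and both lay above Col1a2 in each of these mice. In counts Col1a1 lay below Col1a2 in each of them (ratios 0.838, 0.688 and 0.835). The count ratio of Col3a1 to Col1a2 was 1.07, 1.13 and 0.893. The order against Col1a2 thus rests on its merged length of 12426 bases, against 6563 for Col1a1. Col6a1 followed at 143 ± 21.3 RPKM and Col4a1 at 75.1 ± 15.7 RPKM. In the IMQ mice labelled Lcn2-/- the order was Col3a1 at 831 ± 66.8 RPKM, Col1a1 at 692 ± 42.6 RPKM and Col1a2 at 332 ± 21.8 RPKM. Col3a1 also led in the WT IMQ mice, at 412 ± 4.75 RPKM against 295 ± 18.7 RPKM for Col1a1. Lengths cover all annotated exons of a gene, which moves the level of one chain against another and leaves a change between groups untouched.

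Some ratios between chains within a library moved with IMQ in the same direction under both labels, also that of the type I chains, which themselves moved in opposite directions. The RPKM ratio of Col3a1 to Col1a2 was 1.35, 1.43 and 1.13 in the WT controls and 2.69, 2.55 and 2.51 in the WT IMQ mice, 1.99-fold. It was 1.54, 1.08 and 1.11 in the controls labelled Lcn2-/- and 2.25, 2.35 and 2.95 in the IMQ mice, 2.03-fold. No control reached any IMQ mouse (exact permutation p = 0.1 in each, the smallest possible). The ratio of Col1a1 to Col1a2, which share a triple helix, rose from 1.59, 1.3 and 1.58 to 1.86, 1.77 and 1.91 in WT mice and from 1.46, 1.66 and 1.64 to 2.13, 2 and 2.12 with the Lcn2-/- label. The ratio of Col4a1 to Col4a2 fell from 1.72, 1.53 and 1.66 to 1.39, 1.47 and 1.36 and from 1.57, 1.67 and 1.63 to 1.39, 1.42 and 1.41. For both pairs the groups did not overlap and the exact permutation p was 0.1. Other ratios overlapped. The RPKM ratio of Col3a1 to Col1a1 went from 0.853, 1.1 and 0.715 to 1.44, 1.45 and 1.31 in WT mice without overlap, but with the Lcn2-/- label from 1.06, 0.654 and 0.679 to 1.06, 1.18 and 1.39, which meet (exact permutation p = 0.2). The count ratio of Col5a1 to Col1a1 overlapped under both labels, with 0.104, 0.135 and 0.087 against 0.114, 0.124 and 0.122 in WT mice. The type VI partners Col6a1 and Col6a2 kept overlapping ratios, with group means of 1.97 to 2.08.

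**Figure D4:**
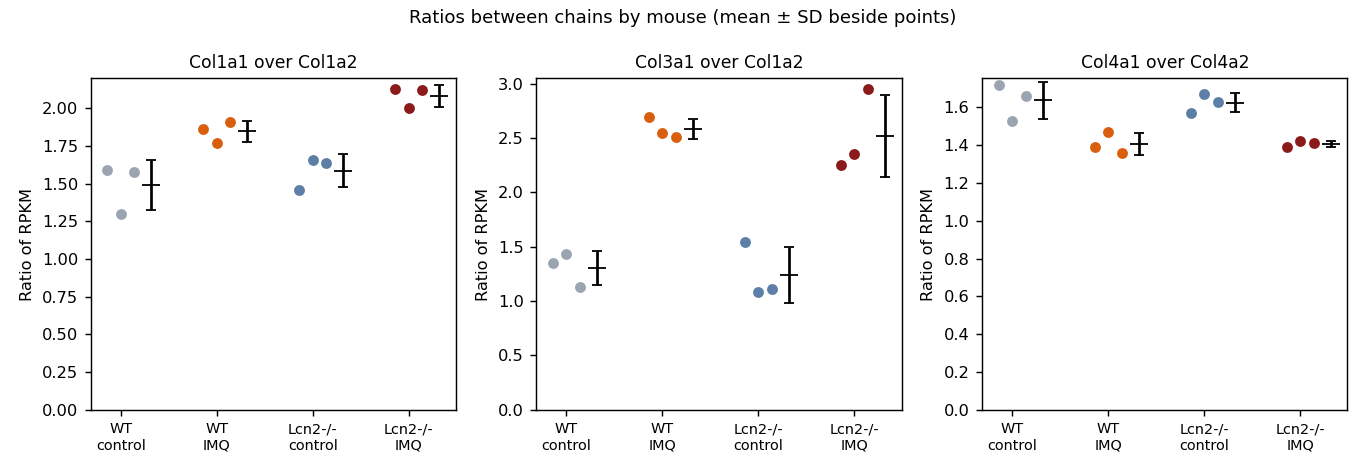
Ratio of RPKM between pairs of collagen chains (y axes, from 0) in each mouse of the 4 groups (x axes, genotype as labelled), with the mean ± SD beside the 3 points. Col3a1 over Col1a2 is 1.54 or less in every control and 2.25 or more in every IMQ mouse, under either label.

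Col11a1, a minor fibrillar chain best known from cartilage, varied widely among the controls. It stood at 119, 11.5 and 66.9 CPM in the WT controls and at 40.7, 173 and 107 CPM in the controls labelled Lcn2-/-. Under IMQ it stood at 5.27, 3.56 and 4.5 CPM in WT mice and at 6.11, 10.3 and 3.66 CPM with the Lcn2-/- label. Every IMQ mouse lay below every control (log2 fold changes -3.88, SE 0.81, adjusted p = 0.00516 and -3.99, SE 0.80, adjusted p = 0.00535). Among the controls it was lowest in WT control 2 and highest in control 2 labelled Lcn2-/-, which were also the lowest and highest in the summed hair follicle genes (12.6 and 10100 CPM), inner root sheath keratins with Tchh and Padi3. In the IMQ mice that sum was 12.7 to 91.4 CPM, with Krt72 at 0 in 5 of 6 of them. Without both of these controls, a choice made after the values were seen, the log2 fold changes were -4.39 and -3.49. A list of 7 cartilage genes without Col11a1 summed to 31.4 to 97.8 CPM in the controls and 14.1 to 27.8 CPM under IMQ. Acan and Sox9 made up most of that sum, and every other gene of the list stayed at or below 2.98 CPM in all libraries. Among the controls Acan, too, was lowest in WT control 2 (2.32 CPM) and highest in control 2 labelled Lcn2-/- (38.6 CPM). Sox9 was highest in the latter (57.2 CPM) but lowest in control 1 of that label (23.5 CPM). Of the 5 tested, 1 fell in WT mice (Acan). With the Lcn2-/- label 2 fell (Acan and Sox9) and 1 rose (Cnmd). The part of hair follicles or cartilage in these values was not tested.

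**Figure D5:**
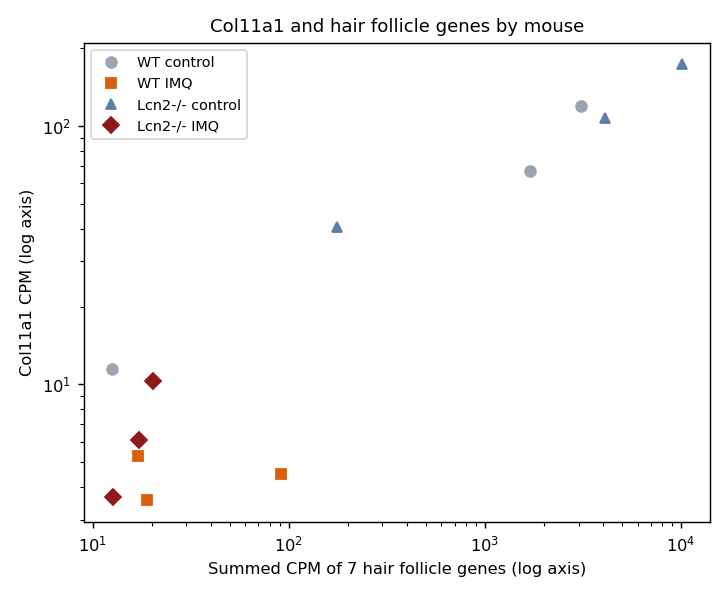
Col11a1 CPM (y axis, log scale) against the summed CPM of 7 hair follicle genes (x axis, log scale) in each of the 12 mice, with genotype as labelled. The IMQ mice lie at the lower left with Col11a1 at or below 10.3 CPM, and the 6 controls spread from 11.5 to 173 CPM.

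The enzymes and partners of collagen were counted over whole lists. Of all genes tested, 14.2% rose and 14.3% fell in WT mice under IMQ, and 14.1% and 11.2% with the Lcn2-/- label. Between the IMQ groups 2.19% of all genes were higher with the Lcn2-/- label and 2.6% lower. All list counts below are to be read beside these shares. Several of them lie near the shares and do not set their lists apart from other genes. Of 26 tested genes of collagen synthesis and secretion, 1 rose and 7 fell in WT mice under IMQ, and 12 rose and 1 fell with the Lcn2-/- label. Serpinh1, the collagen chaperone Hsp47, fell in WT mice from 499, 669 and 480 to 268, 306 and 309 CPM (log2 fold change -0.90, SE 0.15, adjusted p = 0.00143). With the Lcn2-/- label it stood at 599, 528 and 450 CPM and at 521, 557 and 579 CPM under IMQ (log2 fold change 0.07, SE 0.15). It thus overlapped in the mice whose fibrillar chains rose. Plod2, which hydroxylates lysines for cross-links, fell in WT mice by 2.40 on the log2 scale (adjusted p = 0.00333), and so did the procollagen N-proteinase Adamts14, by 0.97, and the enhancer of C-propeptide removal Pcolce2, by 1.59. Between the IMQ groups, 5 of 26 were higher with the Lcn2-/- label, Serpinh1 by 0.91 (adjusted p = 0.0219) and the prolyl isomerase Fkbp10 by 0.76 (adjusted p = 0.0219) among them.

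Of 6 cross-linking enzymes, 1 rose and 1 fell in WT mice and 3 rose with the Lcn2-/- label. Lysyl oxidase, Lox, rose in both (log2 fold changes 0.95, adjusted p = 0.0151, and 1.15, adjusted p = 0.0073), and the transglutaminase Tgm2 fell in WT mice by 0.98 (adjusted p = 0.0487). Loxl1 stood at 93.3, 172 and 47.9 CPM in the WT controls and 59.5, 80.9 and 73.1 CPM in the WT IMQ mice, which overlap. With the Lcn2-/- label it went from 64.6, 34.3 and 38.4 to 149, 217 and 227 CPM (log2 2.11, SE 0.40, adjusted p = 0.00351). Loxl4 did not pass in either (log2 fold changes 0.36 and 0.38).

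Of 19 basement membrane partners, 5 rose and 2 fell in WT mice and 7 rose and 2 fell with the Lcn2-/- label. In WT mice the rises included Itga6 and Itgb4, which encode the integrin of the hemidesmosome, and the laminin chain genes Lamb3 and Lama3. Itga6 went from 130, 126 and 151 to 452, 376 and 442 CPM (log2 1.64, SE 0.14, adjusted p = 1.15e-05), and Lamb3, Itgb4 and Lama3 rose by 1.14, 1.15 and 1.04 on the log2 scale. They rose in the same direction as Col17a1 and Col7a1. With the Lcn2-/- label Itga6, Lamb3 and Itgb4 rose as well, by less (log2 1.05, 0.71 and 0.65, adjusted p = 0.00042, 0.003 and 0.00846). Lama3 did not pass there (log2 fold change 0.52, adjusted p = 0.119). Itgb4 is also in the keratinocyte list. Between the IMQ groups, Itga6 and Itgb4 were lower with the Lcn2-/- label (log2 fold changes -0.54, adjusted p = 0.0487, and -0.61, adjusted p = 0.0426), while Hspg2, the proteoglycan perlecan, was higher by 0.77 (adjusted p = 0.0222). In all, 4 of 19 partners were higher and 2 lower there, the others being Nid1, Pxdn and Lamb1.

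Of 17 fibril-associated proteins, 2 rose and 4 fell in WT mice and 8 rose with the Lcn2-/- label. The rises in WT mice were in the matricellular proteins Thbs1 (log2 2.19, SE 0.23, adjusted p = 5.52e-05) and Tnc, from 55.5, 11.7 and 38.9 to 741, 473 and 776 CPM (log2 4.23, SE 0.73, adjusted p = 0.00171). Both also rose with the Lcn2-/- label (1.70 and 4.08). The fibril-binding proteins Fmod and Dpt fell in WT mice by 1.15 and 1.28 and did not pass with the Lcn2-/- label (log2 fold changes -0.07 and 0.21). Dcn, Lum and Dpt are also fibroblast markers here. The matrix protein Sparc and the small proteoglycan Bgn were 2 of the 4 higher in the IMQ mice labelled Lcn2-/- than in the WT IMQ mice (log2 fold changes 0.96 and 0.99, adjusted p = 0.0219 for each).

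Of 9 tested collagen receptors and uptake proteins, 1 rose in WT mice and 5 rose with the Lcn2-/- label. The rise in WT mice was that of Itga2, a subunit of a collagen-binding integrin, from 16.5, 18.2 and 14.1 to 28.4, 31.9 and 31.7 CPM (log2 0.91, SE 0.14, adjusted p = 0.000827). It did not pass with the Lcn2-/- label (0.08) and was lower there than in WT mice under IMQ (log2 fold change -0.77, adjusted p = 0.0245). Itga10, Itgb1 and Itga1 did not pass in WT mice (log2 fold changes 1.04, 0.31 and 0.34). Mrc2, an endocytic receptor for collagen fragments, rose with the Lcn2-/- label from 43.2, 35 and 36.1 to 92.6, 112 and 98.8 CPM (log2 1.41, SE 0.21, adjusted p = 0.000797).

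Of 8 tested collagen-degrading proteases, 4 rose in WT mice and 7 with the Lcn2-/- label. Mmp8, the collagenase of neutrophils, went from 0.739, 0.817 and 0.585 to 19, 25.5 and 30.3 CPM in WT mice and from 0.952, 0.586 and 4.02 to 46, 37.2 and 114 CPM with the Lcn2-/- label. Mmp13, the main interstitial collagenase of rodents, rose by 3.68 and 2.96 on the log2 scale, and the collagen-cleaving cathepsin Ctsk by 0.69 and 1.04. Proteases thus rose beside a fall of type I chains in WT mice and beside a rise of them with the Lcn2-/- label. Mmp1b was at 0 in the WT controls and at 1.82, 0.269 and 1.6 CPM in the WT IMQ mice, so no fold is given. With the Lcn2-/- label it stood at 0, 0 and 0.0447 CPM and at 0.122, 0.409 and 0.84 CPM under IMQ. It was testable only through IMQ libraries, where it is higher. Its place among the 4 and the 7 that rose therefore carries no weight. Mmp2 and Mmp14 passed only with the Lcn2-/- label (log2 fold changes 1.55 and 1.14, against 0.19 and 0.44 in WT mice). The difference of the responses passed in Mmp2 (1.36, adjusted p = 0.0432) and not in Mmp14 (0.70, adjusted p = 0.106). That difference in Mmp2 joins 2 that did not pass by themselves. They are 0.77 between the IMQ groups (adjusted p = 0.0546) and -0.59 between the controls (adjusted p = 0.669), each Lcn2-/- label over WT.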

How the data were processed

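The authors deposited 1 table of raw counts, whole reads per Ensembl gene in 12 skin libraries, without normalization. The submitters' processing notes name HISAT and the genome build mm8. The counting tool, its strand setting and the annotation are not given in the sources used here. Names, exons and positions came from GENCODE M21 on GRCm38, which matched 91.5% of identifiers and left 0.567% of counts unmatched.

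The members, classes, gene lists and tests were chosen with earlier results of these data known. Counts were normalized by TMM and fitted with edgeR 4.0.16 (R 4.3.3) as 4 group means over the 12 mice (quasi-likelihood, robust spread, filterByExpr with a minimum count of 10, 18529 genes, common biological coefficient of variation 0.253). Adjusted p values are Benjamini-Hochberg over all genes tested, and SE is the log2 fold change divided by the root of the F statistic. Samples are separate mice with no batch in the labels, so p values measure the spread between these mice. No library was a duplicate of another of its group, and pairs across groups were not compared. CPM uses normalized library sizes, and RPKM divides CPM by merged exon length. Sums and ratios were tested on a log2 scale by two-sided exact permutation. Named were 14 major chains, members past the threshold (the 12 with the largest change where there were more) and from each list up to 4 genes with the smallest adjusted p in WT mice. Other genes were named after their values were seen. A gene that this rule names is not reported here.

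Alternatives were RLE factors, library size only, no filter, at least 10 counts in every library, DESeq2 1.42.0, the compared groups alone, a replicate block, a fold change above 2, each mouse left out, sums per kilobase, and sums without the most abundant chain. Leaving out both hair follicle extremes and thinning counts were chosen after seeing the data. Scripts were tested on simulated counts. Figures used matplotlib.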

Additional observations from a re-analysis of the deposited data

Results flagged for a closer look

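In 6 collagen chains the response to IMQ differed between the genotype labels by the interaction term of the edgeR fit, and each is listed for that reason. The log2 difference of the responses (Lcn2-/- label minus WT) was 1.37 in Col1a1 (SE 0.21, adjusted p = 0.0195), 1.31 in Col1a2 (SE 0.23, adjusted p = 0.0262), 1.36 in Col3a1 (SE 0.31, adjusted p = 0.0484), 1.52 in Col5a1 (SE 0.29, adjusted p = 0.0312), 1.63 in Col14a1 (SE 0.25, adjusted p = 0.0194) and 0.92 in Col16a1 (SE 0.19, adjusted p = 0.0385). Col1a1, Col1a2, Col14a1 and Col16a1 passed the test in both labels in opposite directions, with the losses of these calls given above. Col3a1 and Col5a1 passed with the Lcn2-/- label alone. Over the 12 fits with 1 mouse left out, the call was lost in 6 for Col1a1, 7 for Col1a2, 9 for Col3a1, 8 for Col5a1, 6 for Col14a1 and 8 for Col16a1, and none of the differences changed sign. Lcn2 itself was counted in every library with that label.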

How the results depend on the processing

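No result changed sign under any alternative run, and 9 of 10 alternatives other than leaving out a mouse left the counts of chains called in WT mice within 1.5 times. Asking for a fold change above 2 as well left 2 higher and 11 lower chains in WT mice, 8 higher with the Lcn2-/- label, 7 higher between the IMQ groups, 5 lower list genes in WT mice, 23 higher list genes with the Lcn2-/- label, and 0 higher and 0 lower list genes between the IMQ groups. On library size only, list genes gave 25 lower in WT mice, 6 lower with the Lcn2-/- label and 1 lower between the IMQ groups. DESeq2 gave 1 lower chain and 31 higher list genes between the IMQ groups and 14 higher chains in the interaction, no filter on low counts gave 12 there, and the compared groups alone gave 1 lower chain and 34 higher list genes between the IMQ groups. Same-numbered mice are different animals, and 1 of 18 pairs of them deviated together with a correlation above 0.1 (range -0.555 to 0.199). Correlations over 3 mice a group cannot decide whether these animals share more than a number. With a replicate block, 8 chains were higher between the IMQ groups and 1 in the interaction, with 5 higher and 1 lower list genes between the IMQ groups. Without both hair follicle extremes, 3 chains were higher in the interaction, and the log2 ratio of fibrillar to basement membrane CPM differed by -0.07 between the controls.

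With single mice left out, the count of chains lower in WT mice ran from 12 to 19, against 18 with all mice. That of chains higher with the Lcn2-/- label ran from 10 to 12, against 15 with all mice. Counts ran from 8 to 21 for list genes lower in WT mice (lowest without WT IMQ 1, and 9 without WT control 2 or WT IMQ 3). With the Lcn2-/- label they ran from 25 to 40 for list genes higher (lowest without control 3), from 2 to 4 for chains lower (lowest without IMQ 3) and from 1 to 4 for list genes lower (lowest without control 2, control 3, IMQ 2 or IMQ 3). Between the IMQ groups they ran from 0 to 15 for chains higher, from 0 to 23 for list genes higher (highest without WT IMQ 2) and from 0 to 3 for list genes lower, each 0 without WT IMQ 1, WT IMQ 3 or any IMQ mouse labelled Lcn2-/-. In the interaction they ran from 0 to 14. Where a group keeps 2 mice, these fits use the spread shared by all groups. The causes were not tested.

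Without the most abundant chain, the fibrillar sums differed by -0.58 (WT), 0.71 (Lcn2-/- label) and 1.12 (between IMQ groups) on the log2 scale, the basement membrane sums by 0.20 between IMQ groups, and the ratio by -1.08, 0.07 and 0.92. On library size only, the sums differed by 0.20 (basement membrane, WT), -0.55 (other, WT), 0.81 (fibrillar), 0.44 (basement membrane) and 0.29 (other, each with the Lcn2-/- label). Depth limits Col9a3, Col22a1, Col25a1 and Col26a1, which reached 10 counts in 8, 9, 5 and 7 libraries.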
